A study of Homo sapiens with 6 samples.

Results

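BAD, CFLAR and CASP10 are 3 apoptosis genes of the gene expression table, taken by name from its 99 analysed genes. Genes outside those 99 were not analysed here. Among the 99, BAD, CFLAR and CASP10 are the 3 whose pathway column names the KEGG apoptosis pathway. Their RNA was measured in LNCaP-AI cells, a castration-resistant derivative of the LNCaP prostate cancer line. The sh_0092339 group (3 libraries) carried a short hairpin against hsa_circ_0092339, an intronic circular RNA, and the control group (3 libraries) carried a control vector. Both groups are the same cell line, and the labels name no further treatment, dose or time. All hairpin libraries bear 1 hairpin name, so an action of the hairpin on RNAs other than its target and the loss of that target cannot be told apart. The labels do not say whether replicates were separate cultures, so p-values measure the spread between these libraries, which may be technical.

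The hairpin libraries held 53127020, 80559726 and 73620788 mapped fragments and the control libraries 58091756, 58606592 and 68990788, as recovered from the scaling of the deposited values. The circular RNA was not analysed here, so the knockdown was not checked. None of the 22 fixed markers of prostate luminal, basal and stromal cells had a row among the genes analysed here, so the cell line's identity was not checked either.

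Apoptosis can start at the mitochondrion or at a receptor on the cell surface. BAD is a BH3-only member of the BCL2 family that binds the survival proteins BCL2 and BCL-XL, and phosphorylation by survival kinases keeps it away from them. CASP10 is an initiator caspase that joins the adaptor FADD at activated death receptors, as CASP8 does. CFLAR encodes the FLIP proteins, which resemble these caspases but lack their protease activity and compete with them at the receptor complex. CFLAR makes long and short proteins by alternative splicing, and a value per gene merges them.

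BAD lies on the minus strand of chromosome 11 at chr11:64269830-64284665, CFLAR on the plus strand at chr2:201116154-201176687, and CASP10 next to it on the same strand at chr2:201182898-201221665. These are the coordinates of the deposited table, which overlap the same gene in GENCODE 29 on GRCh38 for all 99 genes, although the submitters' notes name hg18. A stretch of 6210 bases separates CFLAR from CASP10. All 3 genes are annotated as protein-coding, and the table lists 7 transcripts for BAD, 25 for CFLAR and 13 for CASP10. Their annotated exons together cover 1708 bases for BAD, 22529 for CFLAR and 7598 for CASP10. Exons of GPR137 on the opposite strand overlap 404 of the exonic bases of BAD, and CFLAR-AS1 and a pseudogene on the opposite strand overlap 777 and 1488 of those of CFLAR. Whether counting used the strand is not stated here, so reads from these stretches may come from either gene. AC007283.1, a noncoding RNA on the same strand as CFLAR, shares 445 exonic bases with it, which counting by strand could not separate.

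The microRNA hsa-miR-940 is named in the series as a partner of the circular RNA, so the match to this microRNA's seed was looked up in the 3′ UTR of 1 annotated transcript per gene. The mature sequence from RefSeq (GRCh38.p14, plus strand, chr16:2271806-2271826) is shown with the seed, bases 2 to 8, in capitals. The 7-base match to the seed is CCTGCCT on the sense strand of the transcript.
hsa-miR-940: aAGGCAGGgcccccgcucccc

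The 3′ UTR of BAD, 379 bases long, held no such match. The 3′ UTR of CASP10 (3924 bases) held 1 and that of CFLAR (12714 bases) held 7. Of 18890 genes searched in the same way, 25.8% held at least 1 match, with a median 3′ UTR of 876 bases. A match of letters is not evidence of binding, and no binding was measured. The E-box CACGTG (its own reverse complement), the motif that MYC binds, was in none of the 2 BAD and 4 CFLAR promoter windows of RefSeq (GRCh38.p14, 250 bases before to 50 after a start), against 7.26% of 35116 such windows. At that share, absence from so few windows is the likely outcome and says nothing particular about these genes. The 2 BAD windows also overlap, with starts at 64284655 and 64284616. No window for CASP10 was used.

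BAD, which promotes apoptosis at the mitochondrion, fell in cells with the hairpin. Its level was 11.2, 12.3 and 10.5 FPKM in the hairpin libraries, against 15.99, 15.3 and 13.6 FPKM in the control libraries. FPKM are fragments scaled to the exonic length of the gene and to the mapped fragments of the library. Every hairpin library was below every control library. In bulk RNA, a fall of this size in all cells and a larger one in a part of the cells cannot be told apart. The means were 11.3 ± 0.884 FPKM with the hairpin and 14.99 ± 1.22 FPKM with the control vector (SD, n = 3 each), a ratio of 0.756.

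In raw counts BAD had 1016, 1693 and 1327 in the hairpin libraries and 1589, 1538 and 1609 in the control libraries. Raw counts are not scaled to depth, and on that scale the groups overlap. By edgeR's quasi-likelihood test on the counts, the log2 fold change of BAD was -0.40 ± 0.1001 (SE), with a 95% interval from -0.65 to -0.16 and an adjusted p of 0.0270. Among the 84 genes tested in that fit, 9.52% were called lower and 15.5% higher, so 1 gene called lower among 3 says nothing particular about apoptosis genes. Adjusted p-values and these shares cover only tested genes among the 99 analysed, not all genes of the libraries. The limma fit on log2(FPKM + 1) gave BAD -0.38 ± 0.0806 (SE) with an adjusted p of 0.0147, where 11.4% of 70 genes were called lower. The exact two-sided permutation p over the FPKM of the 6 libraries was 0.1, the smallest that 3 against 3 allow. Of the 84 genes, 22.6% had hairpin libraries all below the control libraries.

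The call of BAD was lost in 4 of the 6 edgeR fits and 2 of the 6 limma fits that left out a library. By edgeR it was kept without hairpin replicate 2 (adjusted p = 0.0489) and without control replicate 3 (adjusted p = 0.0338). Its edgeR adjusted p was 0.0840 without hairpin replicate 1, 0.0769 without hairpin replicate 3, 0.0940 without control replicate 1 and 0.0623 without control replicate 2. By limma it was 0.0527 and 0.0520 without hairpin replicates 1 and 3. Its log2 fold change was between -0.49 and -0.34 in each of the 6 edgeR fits that left out a library.

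**Figure D1:**
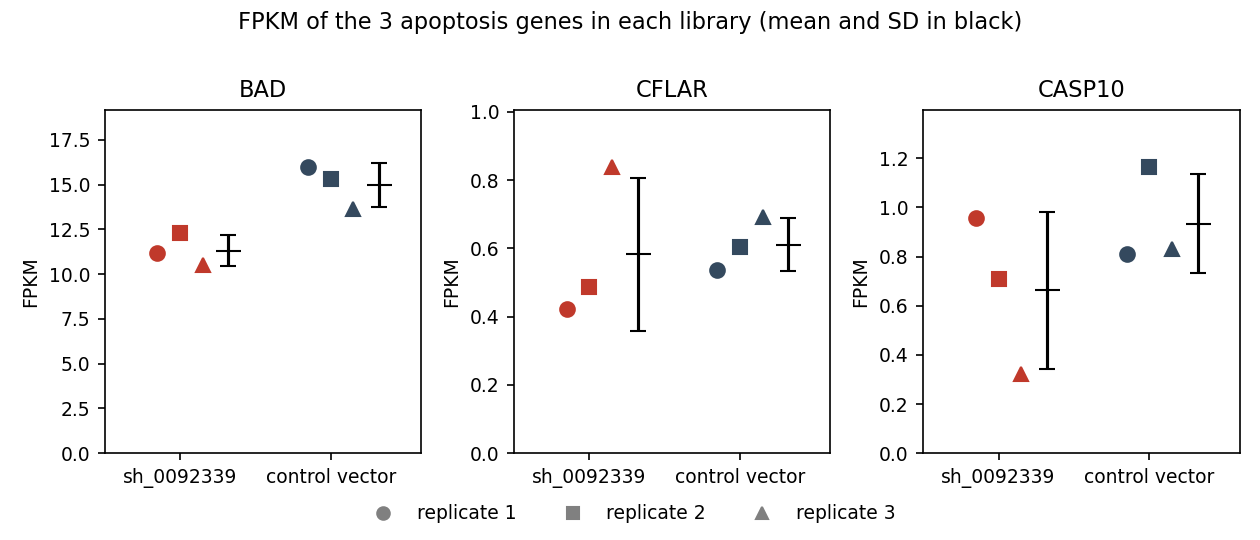
FPKM of BAD, CFLAR and CASP10 (vertical axes from 0, a scale for each gene) in the 3 hairpin libraries (red, left) and the 3 control libraries (dark, right), with the mean and SD in black. BAD separates the groups, with at most 12.3 FPKM in the hairpin libraries and at least 13.6 in the controls, while in CFLAR and CASP10 hairpin replicate 3 lies outside all other libraries, at 0.838 and 0.324 FPKM.

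CFLAR, which encodes the FLIP inhibitors of initiator caspases, was not called, and its hairpin libraries lay on both sides of the controls. It had 0.422, 0.487 and 0.838 FPKM in the hairpin libraries, against 0.537, 0.603 and 0.692 FPKM in the control libraries. Hairpin replicates 1 and 2 were below all controls and hairpin replicate 3 was above all of them. The means were 0.582 ± 0.224 FPKM and 0.611 ± 0.0779 FPKM (hairpin and control vector, SD, n = 3 each).

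The counts behind these levels were 512, 892 and 1395 for CFLAR in the hairpin libraries, and 708, 808 and 1083 in the control libraries. For hairpin replicate 3 the exact Poisson 95% interval of the CFLAR count was 1323 to 1470, which covers counting error only. By edgeR the log2 fold change of CFLAR was -0.07 ± 0.260 (SE), with a 95% interval from -0.70 to 0.55 and an adjusted p of 0.854. The interval holds falls and rises as large as that of BAD, so a change of that size in CFLAR was not detectable with these replicates. Without hairpin replicate 3 the log2 fold change was -0.41 ± 0.144 (edgeR adjusted p = 0.0990). Without hairpin replicate 1 or 2 or control replicate 3 its sign turned, to 0.10, 0.018 and 0.034 (edgeR adjusted p = 0.744, 0.976 and 0.960).

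CASP10, the initiator caspase, had a lower mean with the hairpin, but it was not called either. It had 0.957, 0.708 and 0.324 FPKM in the hairpin libraries, against 0.809, 1.16 and 0.830 FPKM in the control libraries. Hairpin replicate 1 lay within the range of the controls, hairpin replicate 2 below it, and hairpin replicate 3 at less than any other library. The means were 0.663 ± 0.319 FPKM with the hairpin and 0.935 ± 0.200 FPKM with the control vector (SD, n = 3 each), a ratio of 0.709.

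CASP10 counts were 390, 438 and 186 in the hairpin libraries and 360, 520 and 439 in the control libraries. The 186 counts of hairpin replicate 3 have an exact Poisson 95% interval of 160 to 215, so the gap to the other libraries was larger than counting error. By edgeR the log2 fold change of CASP10 was -0.49 ± 0.382 (SE), with a 95% interval from -1.41 to 0.44 and an adjusted p of 0.353. Its estimate was lower than that of BAD, with a wider interval that includes 0. Without hairpin replicate 3 it was -0.15 ± 0.217 and without hairpin replicate 1 it was -0.84 ± 0.381 (edgeR adjusted p = 0.653 and 0.178). Both CFLAR and CASP10 had a mean under 1 FPKM and stayed out of the limma fit with that filter. With a filter at 0.1 FPKM their log2(FPKM + 1) changes were -0.034 and -0.23 (limma adjusted p = 0.799 and 0.268).

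**Figure D2:**
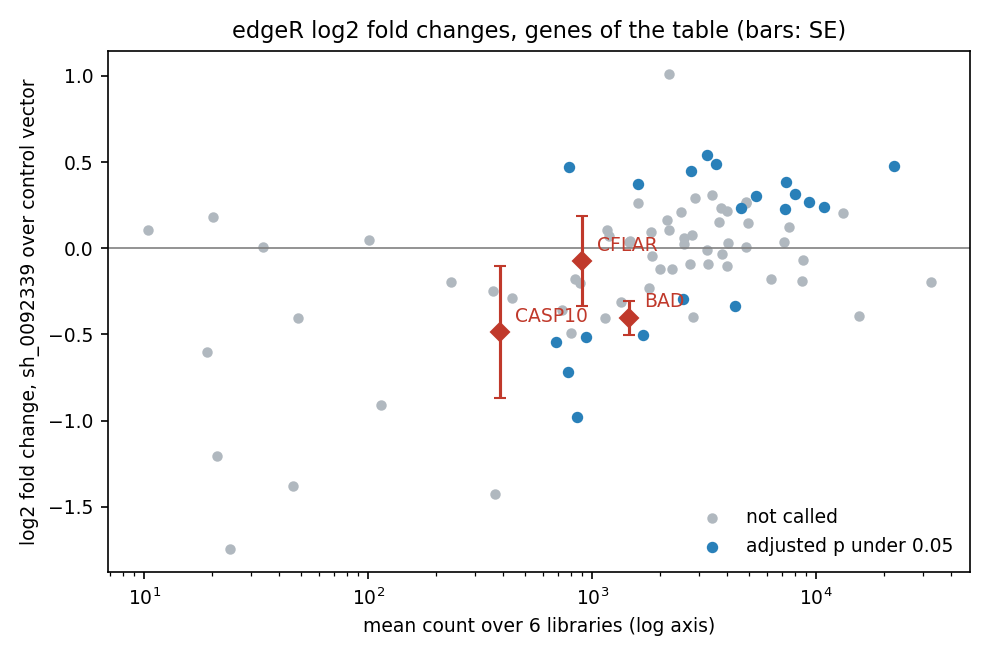
The log2 fold change of each of 84 tested genes by edgeR (vertical axis, hairpin over control vector) against its mean count over the 6 libraries (horizontal log axis), with BAD, CFLAR and CASP10 as red diamonds with SE bars and other called genes in blue. The SE was 0.1001 for BAD, 0.260 for CFLAR and 0.382 for CASP10.

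The median log2 fold change was -0.40 over BAD, CFLAR and CASP10 and 0.0071 over all 84 tested genes, whose quartiles were -0.30 and 0.21. The former is the value of BAD itself, between CFLAR at -0.07 and CASP10 at -0.49, so it does not show a shared fall. The fold change of 15 of the 84 genes was below that of BAD, and that of 12 was below that of CASP10.

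**Figure D3:**
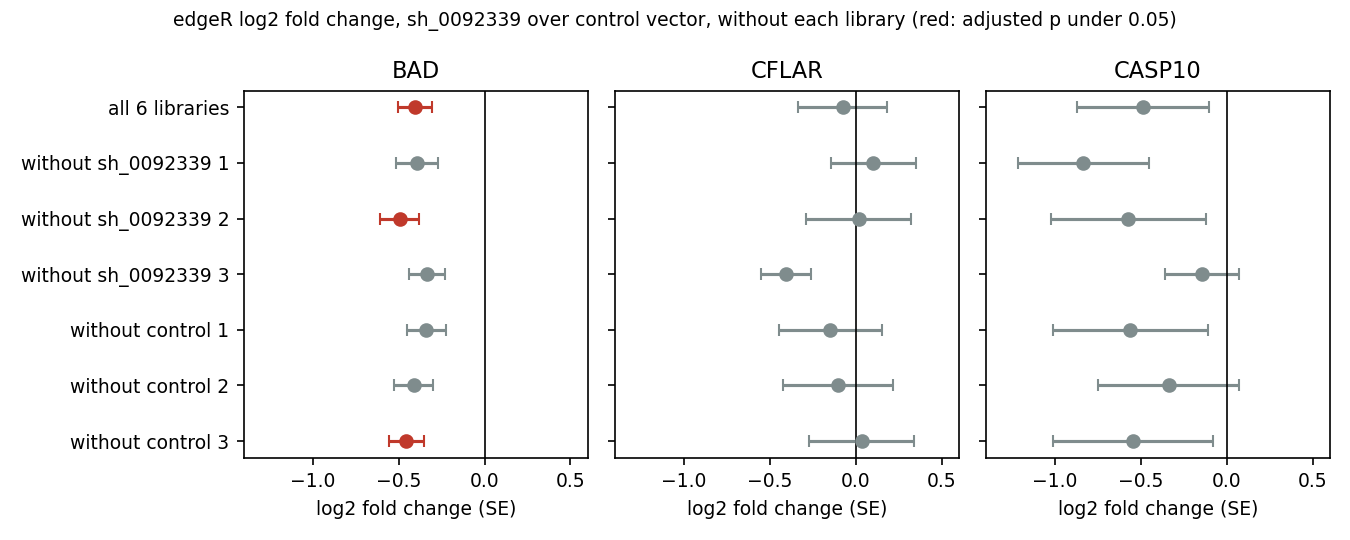
The edgeR log2 fold change (horizontal axis, hairpin over control vector, bars are SE) of the 3 genes with all 6 libraries and with each library left out (rows), red where the adjusted p was under 0.05. BAD stayed between -0.49 and -0.34 but kept its call in 2 of 6 such fits, CFLAR ran from -0.41 to 0.10, and CASP10 ran from -0.84 to -0.15.

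By FPKM, BAD had the highest level of the 3 genes in every library. Over all 6 libraries it averaged 13.2 ± 2.22 FPKM, CASP10 0.799 ± 0.281 FPKM and CFLAR 0.597 ± 0.151 FPKM (SD, n = 6). By mean FPKM they stood at places 25, 72 and 73 among the 99 genes. The levels of CASP10 and CFLAR overlapped and did not differ beyond their spread. CASP10 was above CFLAR in 5 of 6 libraries per length, and hairpin replicate 3 was the exception.

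This order rests on the length used for scaling. The deposited count, FPKM and depth imply lengths of 22604 to 22855 bases for CFLAR, close to the whole exonic length of 22529 bases, whereas the longest listed CFLAR transcript has 14672 bases. A level scaled to a shorter transcript would be higher. In raw counts, which are not scaled to length, CASP10 was above CFLAR in 0 of 6 libraries. The lead of BAD also depends on length, since the lengths implied for BAD were only 1711 to 1713 bases. In hairpin replicate 3 the raw count of CFLAR (1395) was above that of BAD (1327).

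The spread between replicates set these genes apart from each other. The coefficient of variation of FPKM in the hairpin libraries was 7.81% for BAD, 38.5% for CFLAR and 48.1% for CASP10. Its median over the 76 genes that averaged 100 or more counts was 7.18%, and CASP10 and CFLAR had the second and the third largest value among these genes. In the control libraries it was 8.12% for BAD, 12.8% for CFLAR and 21.4% for CASP10, with a median of 7.42%. There CASP10 stood at place 6 and CFLAR at place 18 from the largest among the 76 genes. Hairpin replicate 3 was not apart in general: it was the farthest from its group's median for 34.2% of the 76 genes, hairpin replicate 1 for 42.1% and hairpin replicate 2 for 23.7%. Which property of that library goes with its CFLAR and CASP10 values was not tested.

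Ratios between the genes within a library do not depend on the scaling between libraries. The ratio of CFLAR to CASP10 FPKM was 0.441, 0.688 and 2.59 in the hairpin libraries, against 0.663, 0.518 and 0.833 in the control libraries. The ratio in hairpin replicate 3 was above 1, unlike in any other library. On the log2 scale the ratio averaged -0.12 ± 1.33 with the hairpin and -0.60 ± 0.343 with the control vector (SD, n = 3 each), and the exact permutation p, two-sided, was 0.8.

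The ratio of BAD to CFLAR was 26.5, 25.2 and 12.6 in the hairpin libraries and 29.8, 25.4 and 19.7 in the control libraries. The ratio of BAD to CASP10 was 11.7, 17.3 and 32.5 in the hairpin libraries and 19.8, 13.2 and 16.4 in the control libraries. Both ratios overlapped between the groups, with log2 differences of -0.28 and 0.21 (exact two-sided permutation p = 0.6 and 0.8; adjusted p = 0.8 for each of the 3 ratios). Without hairpin replicate 3 the log2 difference was 0.069 for BAD to CFLAR, -0.19 for BAD to CASP10 and -0.26 for CFLAR to CASP10, each with the opposite sign. The fall of BAD was therefore not shown to differ from the changes of CFLAR and CASP10, and the smallest p that 3 against 3 allow is 0.1.

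**Figure D4:**
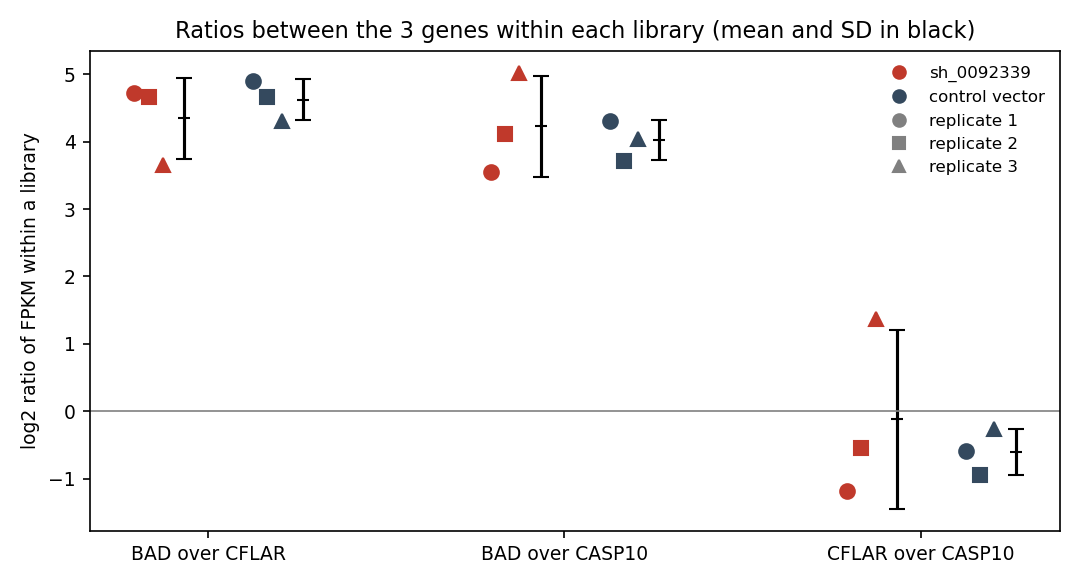
The log2 ratio of FPKM within each library (vertical axis) for the 3 pairs of genes, hairpin libraries in red on the left of each pair and control libraries in dark on the right, with mean and SD in black. Hairpin replicate 3 has the lowest ratio of BAD to CFLAR, at 3.65, and the highest ratio of CFLAR to CASP10, at 1.37, while the groups overlap in each pair.

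Lists of 132 genes of apoptosis and its control, 7 in all, were compared with the 99 analysed genes only. The BCL2 family was represented by BAD alone (1 of 22 genes) and the caspases by CASP10 and CFLAR (2 of 14). None of 20 death receptors, ligands and adaptors and none of 7 enzymes that turn over FLIP proteins had a row among those analysed here. The remaining lists held 5 genes, of which RBM6 was called higher by edgeR and the others were not called.

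Among factors of the mitochondrial arm, SLC25A5, which exchanges ADP and ATP across the inner membrane, had a log2 fold change of -0.20 ± 0.0601, which edgeR did not call (adjusted p = 0.0550) and limma did (adjusted p = 0.0484). The limma call was kept with a pseudocount of 0.1 and without control replicate 3. It was lost with median centring (limma adjusted p = 0.451) and with both other filters on low values. Without each of the other 5 libraries it was lost too (limma adjusted p from 0.0729 to 0.146). Under quantile normalization the log2 fold change of SLC25A5 was 0. That setting gives a gene of unchanged rank the same value in every library, so it could not test SLC25A5. DESeq2 called it lower (adjusted p = 0.0262), as did edgeR without control replicate 3 (adjusted p = 0.0471). Close copies of SLC25A5 in the genome may share its reads.

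PRKAR2B is a regulatory subunit of protein kinase A, a kinase that phosphorylates BAD. It had 7.60, 7.66 and 8.20 FPKM in the hairpin libraries and 8.37, 8.61 and 8.44 FPKM in the control libraries. The groups did not overlap, but the log2 fold change of -0.12 ± 0.0574 was not called (edgeR adjusted p = 0.172).

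RBM5 and RBM6 are related RNA-binding proteins, and RBM5 is known to act on the splicing of death receptor RNA. RBM5 had 12.3, 12.4 and 12.8 FPKM with the hairpin and 13.1, 13.4 and 12.9 FPKM with the control vector, with a log2 fold change of -0.071 ± 0.0388 that was not called (edgeR adjusted p = 0.192). RBM6 rose, with a log2 fold change of 0.23 ± 0.0663 (edgeR adjusted p = 0.0446), but lost the call without any 1 of the 6 libraries (edgeR adjusted p from 0.0520 to 0.115). It also lost it by edgeR with upper-quartile scaling (adjusted p = 0.133) and no low-count filter (adjusted p = 0.0538), and by limma-voom (adjusted p = 0.0599). RBM6 was called higher by limma too (adjusted p = 0.0399) and by DESeq2 (adjusted p = 0.0335). When a single library was left out, limma kept that call only without hairpin replicate 2 (adjusted p = 0.0331). With both other filters on low values limma lost it (adjusted p = 0.0544 and 0.0502).

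The genes with the most similar pattern to each of the 3 were taken by the root mean square difference of centred log2(FPKM + 1) values over the 6 libraries. For BAD these were ARHGAP33 (0.0645), WDR54 (0.0850) and DVL2 (0.0855), of 69 genes compared. ARHGAP33 averaged 1.96 ± 0.273 FPKM with the hairpin and 2.76 ± 0.467 FPKM with the control vector (SD, n = 3 each) and was not called (edgeR adjusted p = 0.0732). It was called lower by DESeq2 (adjusted p = 0.0261) and without control replicate 3 (adjusted p = 0.0476 by edgeR and 0.0246 by limma). DVL2, a Wnt pathway adaptor, averaged 11.1 ± 0.620 FPKM with the hairpin and 14.1 ± 0.470 FPKM with the control vector, and was called lower (edgeR adjusted p = 0.0108). These genes were picked for their likeness to BAD over both groups, so their lower means with the hairpin follow from that choice.

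For CASP10 the nearest genes were STPG1 (0.0834), DBNDD1 (0.120) and DVL2 (0.142), of 70 compared. STPG1 had 2.40, 1.93 and 1.06 FPKM in the hairpin libraries and 1.95, 2.79 and 2.42 FPKM in the control libraries. Its lowest library was hairpin replicate 3, as in CASP10. For CFLAR they were NDUFAF7 (0.0852), RAD52 (0.0950) and PRKAR2B (0.0989). CFLAR averaged under 1 FPKM, where adding 1 narrows the changes, so a nearly flat gene can also come near to CFLAR. NDUFAF7 had 5.44, 6.26 and 6.87 FPKM in the hairpin libraries and 5.66, 6.44 and 5.89 FPKM in the control libraries, with its highest value in hairpin replicate 3, as in CFLAR. RAD52 was instead highest in control replicate 3, at 3.26 FPKM against 2.91 in hairpin replicate 3. PRKAR2B in hairpin replicate 3, at 8.20 FPKM, was below all controls, unlike CFLAR. None of STPG1, DBNDD1, NDUFAF7 and RAD52 was called (edgeR adjusted p = 0.336, 0.898, 0.783 and 0.260).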

How the data were processed

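For each gene and isoform the authors deposited, per the file headers, FPKM and whole-number counts of 6 libraries, and further tables of counts per gene and transcript. Per the submitters' processing notes, cutadapt, HISAT2 and StringTie were used; no versions are named. Mapped fragments per library were recovered from the deposited counts, FPKM and lengths (a value of another kind) of isoforms with at least 1000 counts. They served as library sizes, because the 99 analysed genes are a part of each library.

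Counts of the gene FPKM table were tested with edgeR 4.0.16 (R 4.3.3; quasi-likelihood, TMM factors, filterByExpr), and FPKM with limma 3.58.1 (trend, log2(FPKM + 1), mean of at least 1 FPKM), over all tested rows with Benjamini-Hochberg adjustment and a threshold of 0.05. The edgeR fit decides the calls of the 3 genes. SE and intervals of edgeR were derived from its F statistic. Libraries of a group differed by a chi-square of 26.4 to 67.2 per degree of freedom, so none was taken for a repeated deposit. The transcript searched for seed matches was the best by APPRIS rank, then by coding length. The edgeR step was run on counts simulated with the spread estimated from these data, which cannot test the call of BAD. The outcome is not reported here. DESeq2 1.42.0, limma-voom, other scalings and filters, a replicate block and the omission of single libraries were alternatives.

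Named were the 3 genes, the members of the fixed lists with a row, and the 3 nearest patterns of each gene. The genes and lists were chosen with earlier results of these data known. Some results of the listed genes and the sequences of single seed matches are not reported here.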

Additional observations from a re-analysis of the deposited data

How the results depend on the processing

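BAD was lower with the hairpin under all 13 alternatives to the edgeR fit and all 12 to the limma fit. It lost its call only without single libraries, 4 of 6 by edgeR and 2 of 6 by limma, with log2 fold changes from -0.49 to -0.34 and from -0.44 to -0.33. DESeq2 gave BAD an adjusted p of 0.00380. CASP10 kept its sign and was not called under any of 13 alternatives (-0.84 to -0.15 without single libraries). CFLAR was not called either, and ran from -0.41 to 0.10 without single libraries. No log2 ratio difference between the 3 genes moved by more than the larger replicate SD of its groups, though signs turned without single libraries. That SD was the hairpin one, 0.601 to 1.33, and it includes hairpin replicate 3. It is a wide measure that does not show stability. The difference for CFLAR to CASP10 ran from -0.26 to 1.02 without single libraries.

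Without single libraries edgeR called 4 to 10 genes lower and 5 to 12 higher, and limma 5 to 11 lower and 8 to 15 higher. edgeR with upper-quartile scaling called 8 genes higher, and limma called 23 with median centring and 8 with quantile normalization. Signs of uncalled genes turned for NDUFAF7 with upper-quartile scaling (-0.018) and without single libraries (-0.017 to 0.13 by edgeR, -0.031 to 0.11 by limma), for PRKAR2B with quantile normalization (0.012), and for RBM5 (0.018) and DBNDD1 (0.018) with median centring. DBNDD1 ran from -0.25 to 0.18 by edgeR and from -0.23 to 0.14 by limma without single libraries.

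Same-numbered libraries of the groups had correlations of their deviations of -0.19, 0.14 and -0.19, so the numbers were not taken as pairs. With the replicate block BAD was at -0.40 (edgeR adjusted p = 0.0436), CFLAR at -0.13 and CASP10 at -0.60. With the block RBM6 was not called (adjusted p = 0.0662 by edgeR and 0.0728 by limma), nor was SLC25A5 by limma (adjusted p = 0.120), and ARHGAP33 was called (adjusted p = 0.0376 by edgeR and 0.0325 by limma). With the paired sign-flip form of the ratio test the exact p was 0.25 or 0.75, where 3 pairs cannot go below 0.25. With 3 libraries a group, the spread of CFLAR and CASP10 limits precision more than the counts do.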
